A study of Arabidopsis thaliana with 3 samples.

Results

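GRP7, GRP8 and 6 genes of serine/arginine-rich (SR) splicing factors were followed across seedlings of Arabidopsis thaliana with and without mutations in both GIP genes. The 8 genes were chosen by locus, namely GRP7 (AT2G21660), GRP8 (AT4G39260), SR30 (AT1G09140), SR34 (AT1G02840), RS31 (AT3G61860), RS40 (AT4G25500), RS41 (AT5G52040) and SR45 (AT1G16610). All 8 had a row among the 30271 genes of both deposited tables and all 8 passed the filter on low values. The series compared WT, a cross of the accessions Ws and Col-0, with T12 and T34, which are both gip1 gip2 populations, from a cross of gip1 (GABI_213D01) with gip2 (FLAG_36406). The design text orders T12 and T34 by increasing severity of the root growth phenotype. RNA came from whole seedlings aged 9 days, with 3 libraries per group and 9 in all, and ribosomal RNA was depleted before stranded libraries were made. The GIP proteins bind gamma-tubulin complexes, from which microtubules grow. The time of day of harvest is not given in the sources used here.

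GRP7 and GRP8 encode small RNA-binding proteins with an RNA recognition motif followed by a glycine-rich tail. Their transcripts are outputs of the circadian clock that peak late in the day, and GRP7 protein binds its own transcript and that of GRP8 and shifts them to splice forms that are degraded. SR proteins carry RNA recognition motifs and a domain rich in arginine and serine, and help the spliceosome to choose splice sites. Most plant SR transcripts are themselves alternatively spliced. The deposited values are sums over all transcripts of a gene, so the results are on transcript level and hold no measure of splicing. RefSeq's annotation on TAIR10.1 places GRP7 at chr2:9265084-9266557 and GRP8 at chr4:18273829-18275216, both on the minus strand. It gives 2 mRNA models for GRP7, 4 for GRP8, 3 for SR30, 5 for SR34, 8 for RS40, 7 each for RS41 and SR45, and 1 for RS31.

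The stretch of 250 bases upstream of each gene's annotated start was read from the RefSeq genome, build TAIR10.1, because GRP7 and RS40 fell in both mutant populations, as did GRP8, and clock control of GRP7 acts through its promoter. The evening element, with the letters AAAATATCT, is a motif of evening-phased promoters to which CCA1, LHY and related factors bind. It was searched on both strands. GRP7 held 3 evening elements, at bases 76 to 68, 55 to 47 and 31 to 23 before the start. GRP8 held 1, at bases 12 to 4 before the start. RS40 held no evening element and 1 copy of the related CCA1-binding site, with the letters AAAAATCT, at bases 185 to 178. RS31 held 1 G-box, with the letters CACGTG, at bases 190 to 185, and SR30, SR34, RS41 and SR45 held none of the 3 motifs in this window. The letters of none of the 3 motifs contain those of another, and no matches shared bases in these 8 windows. In the sequences below, read 5′ to 3′ along each gene, capitals mark the evening elements of GRP7 and GRP8, on either strand, and the CCA1-binding site of RS40. The GRP7 stretch is chr2:9266558-9266807 and that of GRP8 chr4:18275217-18275466, both on the minus strand. The RS40 stretch is chr4:13024248-13024497 on the plus strand.
GRP7: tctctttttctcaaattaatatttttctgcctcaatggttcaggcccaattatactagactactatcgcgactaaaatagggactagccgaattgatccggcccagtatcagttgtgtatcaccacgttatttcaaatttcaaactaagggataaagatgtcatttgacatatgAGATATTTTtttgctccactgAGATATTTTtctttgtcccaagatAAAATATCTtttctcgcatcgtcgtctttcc
GRP8: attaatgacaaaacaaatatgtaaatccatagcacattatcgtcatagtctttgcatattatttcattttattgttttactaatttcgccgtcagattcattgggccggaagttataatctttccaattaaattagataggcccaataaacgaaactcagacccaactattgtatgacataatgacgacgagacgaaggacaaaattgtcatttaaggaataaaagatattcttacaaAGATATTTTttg
RS40: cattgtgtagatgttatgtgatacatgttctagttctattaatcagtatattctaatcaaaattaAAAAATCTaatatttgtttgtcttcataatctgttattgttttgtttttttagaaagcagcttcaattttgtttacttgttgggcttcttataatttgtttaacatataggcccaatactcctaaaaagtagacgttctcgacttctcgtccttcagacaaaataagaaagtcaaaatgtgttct

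Of 27443 gene promoters of this length, 2.361% (648) held at least 1 evening element, 6.687% a CCA1-binding site and 6.486% a G-box. At least 2 evening elements were found in 22 promoters and 3 in only 3 promoters, those of GRP7, AIF1 (AT3G05800) and BBX8 (AT5G48250). A match is a run of letters and not evidence of binding.

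GRP7 had the largest change of the 8 genes. It fell in both mutant populations by a factor of more than 10, and GRP8 fell less. The normalized count of GRP7, which is the read count divided by a size factor of the library, was 5346, 7293 and 6972 in WT replicates 1 to 3, 339, 362 and 391 in T12, and 451, 499 and 358 in T34. The lowest WT library stood far above every mutant library. On the log2 scale, with a pseudocount of 1, GRP7 changed by -4.15 (SE 0.16, n = 3 per group) in T12 and by -3.90 (SE 0.16) in T34, with adjusted p-values of 8.35e-07 and 7.54e-07 from limma with Benjamini-Hochberg adjustment over 20871 genes. As a fold this was 17.8-fold lower in T12 (95% interval 13.9 to 22.7) and 14.97-fold lower in T34 (11.7 to 19.1). Among the 20871 genes tested, GRP7 stood at rank 68 from the lowest log2 fold change in T12 and at rank 82 in T34. In whole seedlings, fewer cells of a type that uses a gene and less RNA per cell cannot be told apart.

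GRP8, the closest relative of GRP7 among the 8 genes, had 462, 795 and 574 normalized counts in WT. It had 219, 251 and 249 in T12 and 365, 336 and 296 in T34. All 6 mutant libraries lay below all 3 WT libraries, and the T34 libraries lay between the other groups. GRP8 was 2.48-fold lower in T12 (95% interval 1.85 to 3.32, adjusted p = 0.000574 by limma) and 1.8-fold lower in T34 (1.34 to 2.40, adjusted p = 0.00531). The authors' deposited table gives log2 fold changes of -4.16 for GRP7 and -1.29 for GRP8 in T12, and -3.90 and -0.81 in T34. With the sparsest WT library, replicate 2, left out, the limma value for GRP8 in T34 was -0.64, and the call held.

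Over the 8 genes, 5 passed the test in T12, 1 higher and 4 lower, where 40.2% of all genes tested did (23.1% higher and 17.0% lower). In T34 4 passed, 1 higher and 3 lower, against 45.2% of all genes (25.2% higher and 20.0% lower). A call was an adjusted p under 0.05 in 1 limma fit over all 9 libraries. Beside such shares of the whole table, the counts of calls give no result about the 8 genes as a set. The median log2 fold change of the 8 genes was -0.48 in T12 and -0.10 in T34, beside 0.06 in both over all genes tested. The spread among the 8 genes ran from -4.15 to 1.16 in T12 and from -3.90 to 1.53 in T34. In 5 of 8 genes the T12 and WT libraries did not overlap, 1 higher and 4 lower, against 51.3% of all genes (28.3% higher and 23.0% lower). For T34 and WT this held for 5 of 8, 2 higher and 3 lower, against 56.0% (30.9% higher and 25.1% lower).

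**Figure D1:**
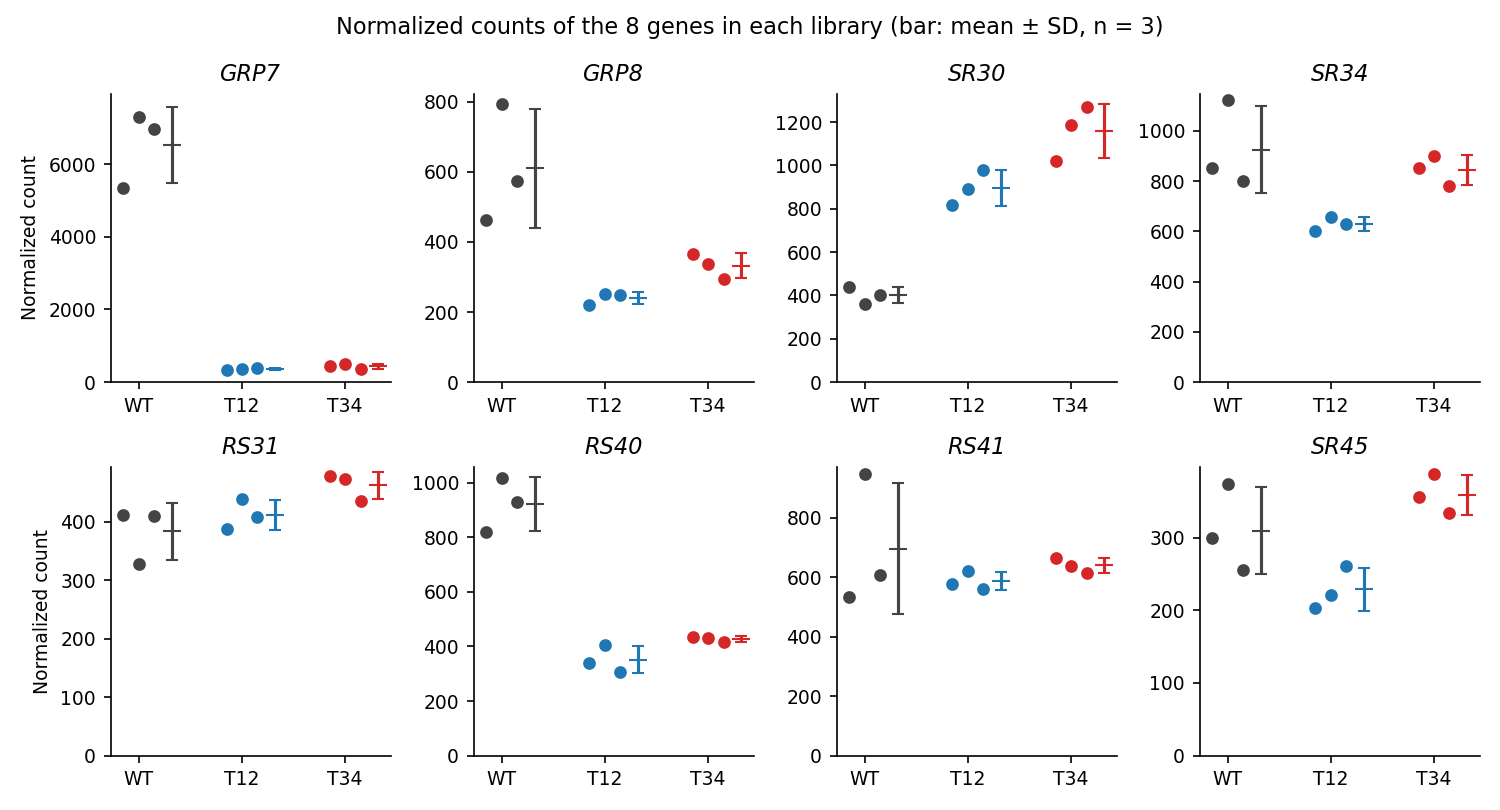
Normalized count (vertical axis, from 0) of each of the 8 genes in the 9 libraries, by group; points are libraries in the order of replicates 1 to 3 and bars are the mean ± SD (n = 3). GRP7 dropped from at least 5346 in WT to at most 499 in the mutants, SR30 was higher in all 6 mutant libraries, and RS40 was lower in all 6.

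SR30 was the only one of the 8 genes called higher, and it was called in both mutant populations. SR30 and SR34 are close relatives, both related to the human splicing factor SF2/ASF. SR30 had 439, 362 and 403 normalized counts in WT. It had 818, 890.0 and 981 in T12 and 1022, 1187 and 1269 in T34. The 3 groups did not overlap, with WT lowest and T34 highest. SR30 was 2.23-fold higher in T12 (95% interval 1.85 to 2.70, adjusted p = 9.64e-05 by limma) and 2.88-fold higher in T34 (2.38 to 3.48, adjusted p = 1.69e-05).

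SR34 fell in T12 and did not pass the test in T34. It had 853, 1122 and 799 normalized counts in WT. It had 601, 658 and 628 in T12 and 851, 900.2 and 780.4 in T34. The T12 libraries were below all others, and those of T34 overlapped WT. The log2 fold change in T12 was -0.54 (SE 0.13, adjusted p = 0.0106 by limma). In T34 it was -0.12 (95% interval -0.42 to 0.18, adjusted p = 0.492).

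RS40 fell in both populations while its close relative RS41 did not pass the test in either. Both belong to the RS group of SR proteins, which is found in plants and not in mammals. RS40 had 820.5, 1017 and 930.4 normalized counts in WT. It had 340.1, 405 and 307 in T12 and 434, 432 and 414 in T34. Every mutant library held less than every WT library, and T12 lay below T34. RS40 was 2.63-fold lower in T12 (95% interval 2.16 to 3.20, adjusted p = 4.12e-05 by limma) and 2.15-fold lower in T34 (1.77 to 2.62, adjusted p = 0.000129).

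RS41 had 532, 947 and 608 normalized counts in WT. It had 579, 620.1 and 559.7 in T12 and 666, 637 and 615 in T34. The WT range enclosed both mutant groups, and its highest value was that of WT replicate 2, which rests on 81 reads. The log2 fold changes were -0.20 in T12 (95% interval -0.62 to 0.22, adjusted p = 0.414 by limma) and -0.08 in T34 (-0.50 to 0.34, adjusted p = 0.758). Without WT replicate 2 the values were 0.04 and 0.17, still not called.

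RS31, another gene of the RS group, is known for splicing that responds to light. It had 412, 327 and 410.4 normalized counts in WT. It had 387, 439 and 408 in T12 and 478, 474 and 435 in T34. The T12 libraries overlapped WT, and those of T34 lay above it. Neither change passed the test, with log2 fold changes of 0.11 in T12 (95% interval -0.16 to 0.37, adjusted p = 0.492 by limma) and 0.28 in T34 (0.01 to 0.54, adjusted p = 0.0834).

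SR45 encodes an SR-like protein with an arginine and serine-rich domain on each side of its RNA recognition motif, which binds U1-70K and U2AF35. It had 299.7, 374 and 255 normalized counts in WT. It had 204, 221 and 261 in T12 and 356, 388 and 333 in T34. WT overlapped both mutant groups, while all T34 libraries lay above all T12 libraries. Neither comparison with WT passed the test, with log2 fold changes of -0.42 in T12 (95% interval -0.78 to -0.07, adjusted p = 0.0600 by limma) and 0.23 in T34 (-0.13 to 0.59, adjusted p = 0.270). The T12 value passed the test under 4 of 19 alternative settings and the T34 value under 2.

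**Figure D2:**
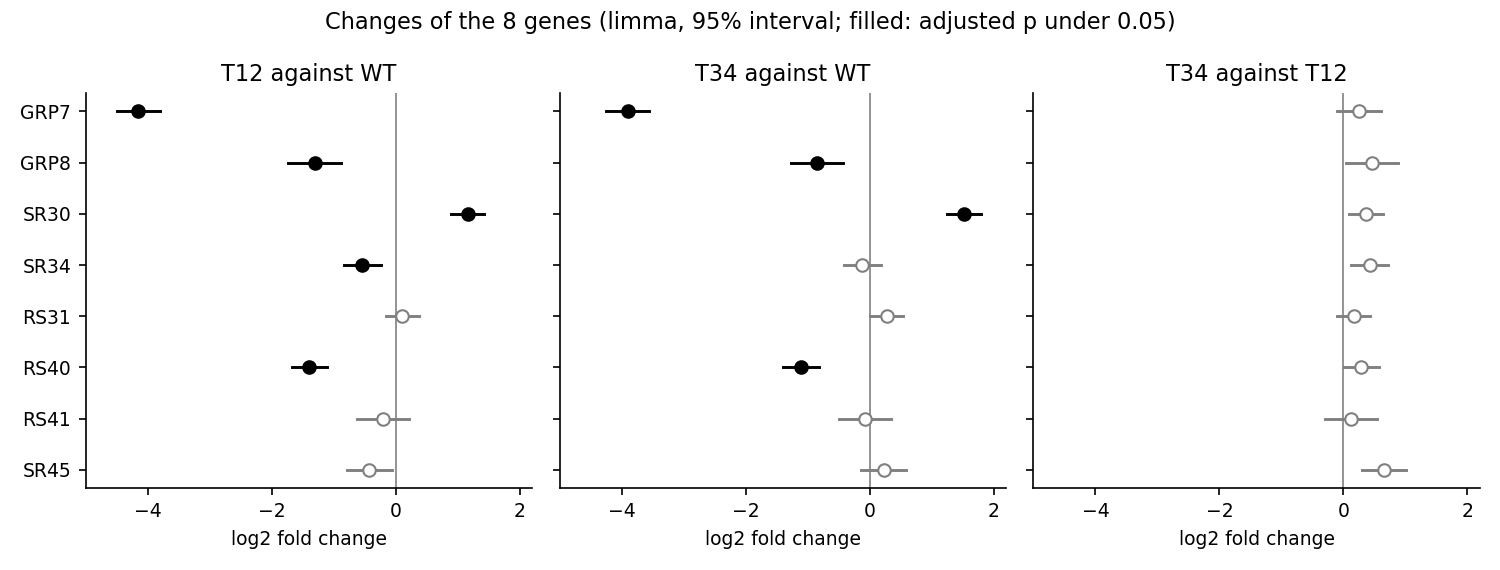
Log2 fold change (horizontal axis) of the 8 genes in T12 against WT, T34 against WT and T34 against T12, with 95% intervals from limma; filled points have an adjusted p under 0.05. GRP7, GRP8 and RS40 lie left of 0 and SR30 right of 0 in both comparisons with WT, and all 8 points lie right of 0 for T34 against T12 with none filled.

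Between the mutant populations, all 8 genes had a higher mean log2 value in T34 than in T12, by 0.13 (RS41) to 0.65 (SR45), and none passed the test. Of all genes 2.38% did, 0.858% higher and 1.52% lower in T34. The median over the 8 genes was 0.33, beside 0.005 over all genes. In SR30, SR34, RS40, GRP8 and SR45 all T34 libraries lay above all T12 libraries, which is 5 of 8 genes. Over all genes tested the groups did not overlap in 33.0%, with T34 above in 17.3% and below in 15.8%. At an unadjusted p under 0.05 by limma, the same 5 genes passed. The share of all genes that passed at this threshold is not given here, so this count gives no result about the 8 genes. The adjusted p of SR45 was 0.0787 by limma, and those of SR34, SR30, GRP8 and RS40 were 0.161, 0.177, 0.266 and 0.309. On the reads recovered from the normalized counts, edgeR called SR45 and DESeq2 called SR34 and SR45. Limma-voom with library weights called SR45, SR34, SR30 and GRP8. Without WT replicate 2, limma called SR45 (adjusted p = 0.0140), SR34 (0.0166) and GRP8 (0.0459), with the same log2 differences. Calls over all 20871 genes rose as well under these settings. They were 497 in the main fit, 1369 with edgeR, 1625 with DESeq2, 4486 with limma-voom and 1898 without WT replicate 2. The T12 and T34 comparisons with WT share the 3 WT libraries.

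Levels between genes were compared per kilobase of exons, as normalized counts divided by the length of all annotated exons joined, on TAIR10.1. In WT, GRP7 held 5611 ± 896 normalized counts per kilobase (SD, n = 3), followed by GRP8 with 552 ± 153, SR34 with 456 ± 85.3, RS40 with 364 ± 38.8, RS31 with 319 ± 40.4 and RS41 with 280.0 ± 88.9. SR30 and SR45 were lowest, at 178 ± 16.9 and 143 ± 27.7. The libraries of neighbours in this order overlapped, except that those of GRP7 stood above all others and those of RS41 above SR30. GRP7 ranked first of the 8 in each WT library.

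In T12 the order was SR30 with 397 ± 36.1, RS31 with 342 ± 21.6, GRP7 with 312 ± 22.6, SR34 with 310.2 ± 13.9, RS41 with 236 ± 12.4, GRP8 with 217 ± 16.3, RS40 with 138 ± 19.7 and SR45 with 105 ± 13.6 normalized counts per kilobase. In T34 it was SR30 with 514 ± 55.9, SR34 with 416 ± 29.7, RS31 with 385 ± 19.4, GRP7 with 374 ± 61.7, GRP8 with 301 ± 31.7, RS41 with 257 ± 10.2, RS40 with 168 ± 4.23 and SR45 with 165 ± 12.6. SR30 ranked first in all 6 mutant libraries, after rank 7 or 8 in the WT libraries. GRP7 ranked 3 or 4 in the mutants. Neighbours whose libraries did not overlap were SR34 and RS41, GRP8 and RS40, and RS40 and SR45 in T12, and SR30 and SR34, and RS41 and RS40, in T34. RS40 moved from rank 4 or 5 in WT to 7 or 8.

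The difference between relatives within a library does not depend on how the library was scaled. GRP7 exceeded GRP8 by 3.53, 3.20 and 3.60 on the log2 scale of normalized counts in WT, by 0.63, 0.52 and 0.65 in T12 and by 0.30, 0.57 and 0.27 in T34. SR30 minus SR34 was -0.96, -1.63 and -0.99 in WT, 0.44, 0.44 and 0.64 in T12, and 0.26, 0.40 and 0.70 in T34. The sign turned, from SR34 in excess in all 3 WT libraries to SR30 in excess in all 6 mutant libraries. RS40 minus RS41 turned the other way, at 0.62, 0.10 and 0.61 in WT, -0.76, -0.61 and -0.86 in T12, and -0.62, -0.56 and -0.57 in T34.

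These paralog differences moved by -2.84 (SE 0.13) in T12 and -3.06 (SE 0.16) in T34 for GRP7 over GRP8, against WT. They moved by 1.70 (SE 0.23) and 1.65 (SE 0.25) for SR30 over SR34, and by -1.19 (SE 0.19) and -1.03 (SE 0.17) for RS40 over RS41. WT and mutant libraries did not overlap in any of these 6 comparisons. In an exact two-sided permutation test each gave p = 0.1, the smallest that 3 libraries against 3 allow, and 0.15 after adjustment over all 9 comparisons, so this test cannot reach 0.05 here. T34 and T12 overlapped for all 3 pairs, with differences of -0.22, -0.05 and 0.17 and exact permutation p-values of 0.2, 0.8 and 0.2. How the authors counted reads that match several genes is not given in the sources used here. The coding sequences were 78.6% identical for GRP7 and GRP8, with a longest shared run of 39 bases, 70.1% (14 bases) for SR30 and SR34, and 81.9% (47 bases) for RS40 and RS41. In the annotation RS40 overlaps AT4G25510 by 42 bases and RS41 overlaps AT5G52045 by 656 bases, both on the opposite strand, and those loci were not analysed here.

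**Figure D3:**
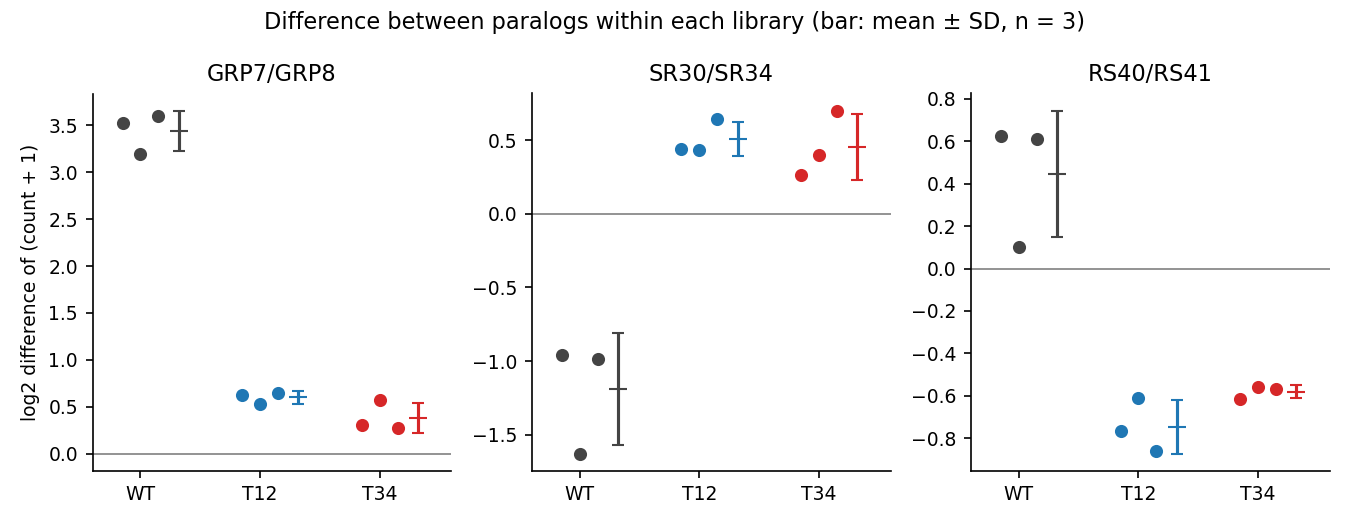
Difference between relatives within each library (vertical axis, log2 of the normalized count plus 1, first gene minus second) by group; points are libraries and bars the mean ± SD (n = 3). SR30 minus SR34 turned from below 0 in WT to above 0 in all mutant libraries, and RS40 minus RS41 from above to below 0.

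GRP7 and GRP8 were not alone in carrying the motif and falling. Of the tested genes, 497 held at least 1 evening element, and 30.2% of them (150) were lower in T12 and 32.8% (163) in T34. Of the 19633 tested genes without the motif, 16.9% and 19.5% were lower. Higher in T12 and T34 were 17.3% and 18.1% of the genes with the motif, and 23.1% and 25.4% of those without it. With at least 2 elements, 13 of 20 genes were lower in each population. With 3, all 3 were lower, GRP7 itself, BBX8 by -3.14 and -2.99 and AIF1 by -1.66 and -1.71 on the log2 scale in T12 and T34. The share lower remained larger with the motif than without under all 19 alternative settings in both comparisons. These counts are a description with no test, since genes are not replicates. They include GRP7 and GRP8, whose falls prompted the motif search. The part of the motif in these changes was not tested. Of the 10 clock genes listed beside GRP7, 3 were higher and 7 lower in each population. Over all genes tested 23.1% were higher and 17.0% lower in T12, and 25.2% and 20.0% in T34. CCA1, LHY and PRR9, which are expressed from dawn or in the morning, were higher by 4.96, 5.74 and 3.07 in T12 and by 5.02, 5.79 and 3.71 in T34 on the log2 scale. PRR7, which is also expressed in the morning, was lower, by -1.34 in T12 and -0.93 in T34. PRR5, ELF4, GI, TOC1, LUX and ELF3, which peak later in the day, changed by -3.65, -3.91, -1.77, -2.48, -2.34 and -1.92 in T12 and by -3.83, -4.56, -1.26, -2.10, -2.73 and -1.71 in T34. ELF4 held only 1.68 to 4.49 normalized counts in T12 and 0.837 to 2.99 in T34, so its fold changes depend on the pseudocount of 1. Whether the groups were harvested at the same time of day is not given. The part of harvest time in the changes of the clock genes, GRP7 and GRP8 was not tested.

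**Figure D4:**
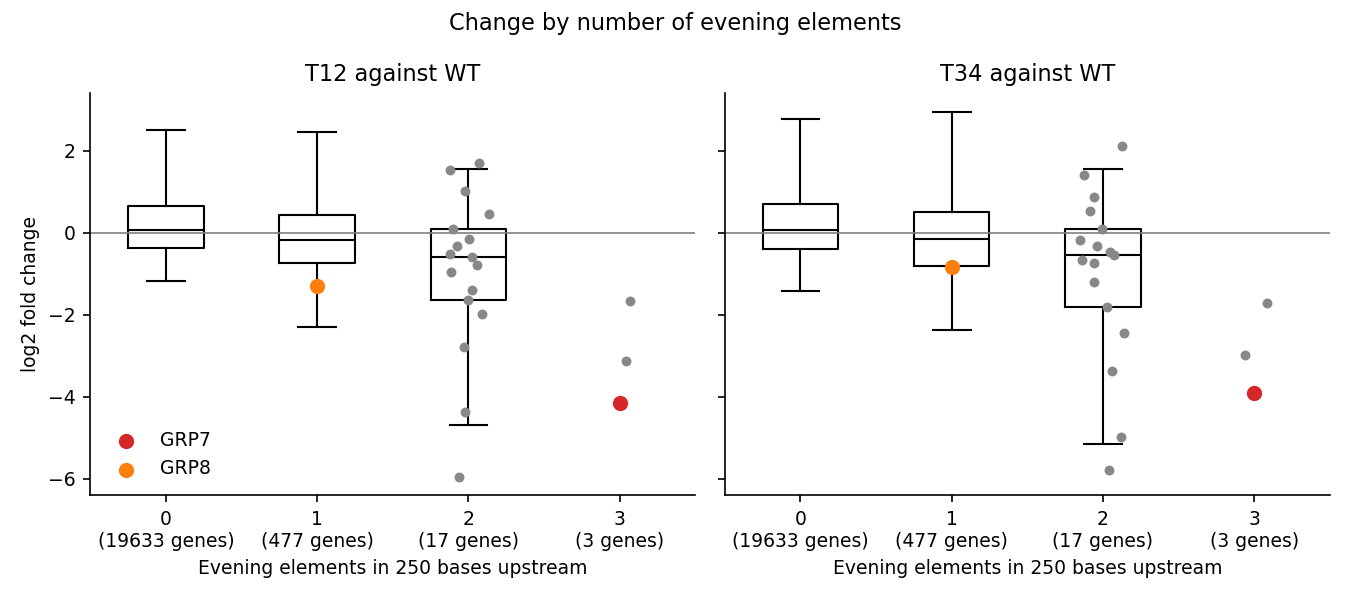
Log2 fold change (vertical axis) in T12 and T34 against WT by the number of evening elements in the 250 bases upstream of a gene; boxes span the quartiles with the median, whiskers the 5th and 95th percentiles, and single genes are points for 2 and 3 elements. GRP7 (red, 3 elements) is the lowest of its class and GRP8 (orange) has 1.

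The genes whose pattern was most like that of GRP7 over the 9 libraries, by Pearson correlation of log2 values among 12889 genes with a mean of at least 100 normalized counts, were BT2 (r = 0.998), BGAL10 (0.998), AKINBETA1 (0.998), SS4 (0.997) and COR27 (0.997). BT2 averaged 4313 normalized counts in WT, 90.1 in T12 and 108 in T34. COR27, a cold-induced gene under clock control, averaged 763, 11.3 and 13.3. For GRP8 the most alike were AT1G63300 (0.994), U2AF65A (0.988), RR1 (0.986), AT1G21670 (0.985) and UVR8 (0.985). U2AF65A encodes a subunit of the factor that recognises the 3′ splice site. Among the 8 genes, GRP7 was most alike to RS40 (r = 0.973) and most opposite to SR30 (-0.947), and SR34 with SR45 gave 0.845. The libraries fall into WT and mutant clusters, which these coefficients mostly describe.

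The other 14 genes of the SR family, all tested, held 3 higher and 2 lower calls in T12, where 23.1% of all genes were higher and 17.0% lower, and had a median log2 fold change of -0.04. In T34 5 were higher and none lower, against 25.2% and 20.0% of all genes, with a median of 0.27. SR45a, an SR-like gene induced by heat and strong light, had the largest change of the list. It averaged 205 ± 5.42 normalized counts in WT (SD, n = 3), 1621 ± 330.0 in T12 and 2039 ± 661 in T34, a log2 fold change of 2.96 (adjusted p = 2.09e-05 by limma) and 3.26 (1.00e-05). RS31a, the closest relative of RS31, rose by 0.84 and 1.12 on the log2 scale. SCL33, of the SC35-like group, rose by 0.36 and 0.75. SR34a and SC35 rose in T34, by 0.52 and 0.44. In T12 RSZ22a and RS2Z32, which carry zinc knuckles, fell by 0.49 and 0.32. The T12 calls of SCL33 and RSZ22a were lost without T12 replicate 2, at 0.32 and -0.42 (adjusted p = 0.0761 and 0.0852 by limma). That of RS2Z32 was lost when any 1 library other than WT replicate 3 was left out, at -0.36 to -0.25 (adjusted p = 0.0515 to 0.123). Between T34 and T12 none of the 14 passed limma's test. All 14 log2 differences were above 0, with a median of 0.29, beside 0.005 over all genes tested. In 9 of the 14 the T34 libraries lay above all T12 libraries, while over all genes tested this held for 17.3%.

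Of the other glycine-rich RNA-binding genes on the list, 7 were tested, and RZ-1A stood below the filter on low values. GR-RBP3 rose in both populations, by 0.89 and 1.47 on the log2 scale, and GR-RBP5 rose in T34 by 0.71. Both encode mitochondrial RNA editing factors. None of the 7 passed the test as lower, and the 5 others passed in neither comparison. Higher calls over all genes were 23.1% in T12 and 25.2% in T34, and lower calls 17.0% and 20.0%. The T12 call of GR-RBP3 was lost on leaving out WT replicate 1 or 3, T12 replicate 2 or 3 or T34 replicate 2, at 0.73 to 0.89 (adjusted p = 0.0524 to 0.107 by limma). The T34 call of GR-RBP5 was lost without WT replicate 1 or 3 or T34 replicate 1 or 2, at 0.58 to 0.66 (adjusted p = 0.0792 to 0.0872).

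**Figure D5:**
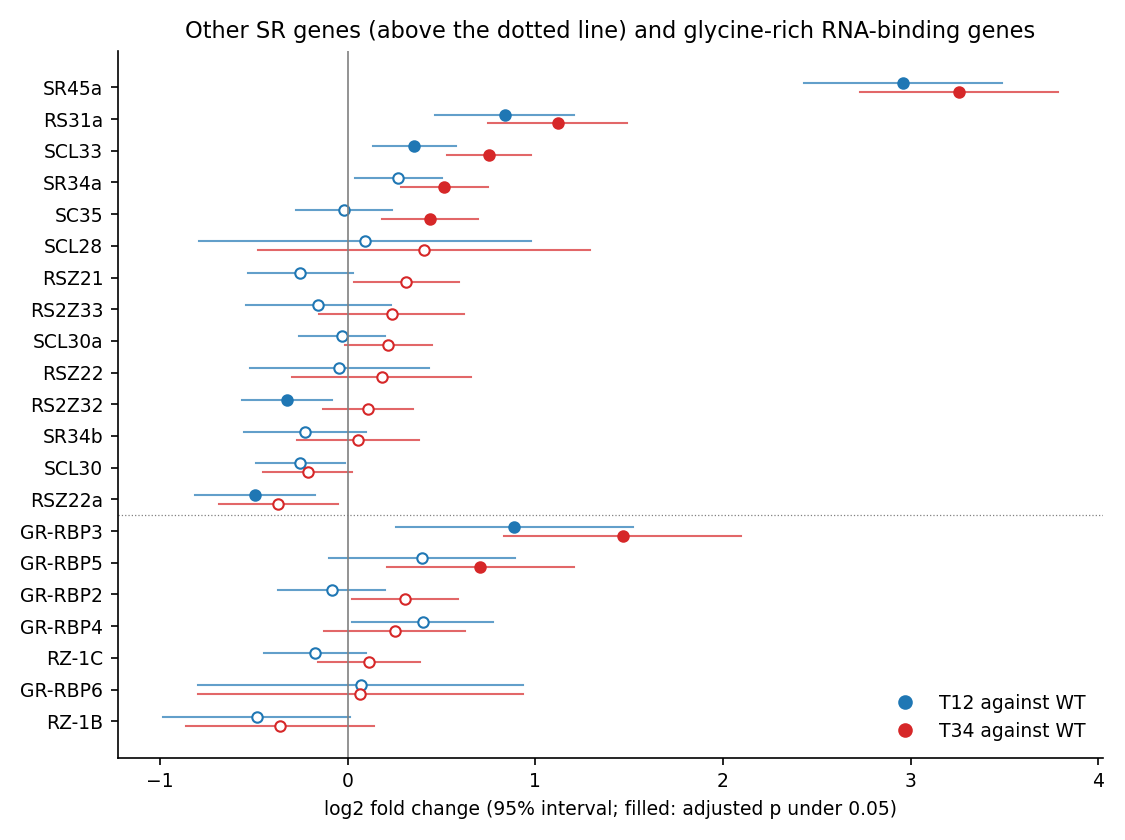
Log2 fold change (horizontal axis) of the other SR genes, above the dotted line, and of the other glycine-rich RNA-binding genes, in T12 (blue) and T34 (red) against WT, with 95% intervals from limma; filled points have an adjusted p under 0.05. SR45a stands apart at 2.96 and 3.26, and GR-RBP3 leads the glycine-rich genes.

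Of 7 listed loci of kinases that phosphorylate SR proteins, 1 was higher, 3 were lower and 3 did not pass the test in each population. Over all genes 23.1% were higher and 17.0% lower in T12, and 25.2% and 20.0% in T34. SRPK4 fell by 0.68 and 0.63 on the log2 scale and AFC1 by 0.40 and 0.39. AT4G32660, annotated as AME3, fell by 0.35 and 0.38. AT4G35500, annotated as a protein kinase, rose by 0.70 and 0.82, and by 0.39 and 0.51 without WT replicate 2 (adjusted p = 0.0465 and 0.0146 by limma). The calls of SRPK4 held under all 19 alternative settings. The others were lost when single libraries were left out, with adjusted p-values by limma of 0.0518 to 0.0690 in T12 and 0.0513 to 0.0847 in T34 for AFC1. For AFC1 these were WT replicate 3 and any T12 library in T12, and WT replicate 3 and T34 replicates 1 and 2 in T34. For AT4G32660 they were WT replicate 3, T12 replicates 2 and 3 and T34 replicate 2 in T12 (0.0517 to 0.106), and WT replicate 3 and T34 replicates 1 and 2 in T34 (0.0549 to 0.0653). For AT4G35500 they were all but WT replicates 1 and 2 in T12 (0.0524 to 0.145), and T34 replicates 1 and 2 in T34 (0.0733 to 0.0813).

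Of 18 factors of the U1 and U2 particles and their partners, 4 fell in T12, 3 fell in T34, and none rose. Lower calls over all genes were 17.0% in T12 and 20.0% in T34, near these shares, and higher calls 23.1% and 25.2%. SKIP, a spliceosome component known for its part in the splicing of clock transcripts, fell by 0.75 and 0.71 on the log2 scale. U2AF35A, the small subunit of the 3′ splice site factor, fell by 0.77 and 0.55, and U2AF65A by 0.43 and 0.33. U1-70K, the U1 protein that SR45 binds, fell by 0.75 in T12, and without WT replicate 2, the highest library, by 0.48 (adjusted p = 0.00481 by limma). Without that library U2AF35A fell by 0.32 in T34 (adjusted p = 0.0173). The T34 call of U2AF35A was lost without any 1 of the T34 libraries, at -0.57 to -0.54 (adjusted p = 0.0683 to 0.0857 by limma). That of U2AF65A was lost without any 1 of these or WT replicate 3, at -0.36 to -0.29 (adjusted p = 0.0542 to 0.0963).

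Of 11 PTB, UBP1, RBP45 and RBP47 genes, 4 rose and 2 fell in T12, and 4 rose and none fell in T34. Over all genes 23.1% were higher and 17.0% lower in T12, and 25.2% and 20.0% in T34. RBP45A rose by 0.72 and 0.94 on the log2 scale, UBP1B by 0.62 and 0.88 and UBP1C by 0.50 and 0.83. RBP47B rose by 0.49 in T12, a call lost without WT replicate 1 or 3 or T12 replicate 1 or 2, at 0.38 to 0.53 (adjusted p = 0.0580 to 0.0997 by limma). These proteins bind U-rich RNA. Nonsense-mediated decay degrades many alternative splice forms of SR genes. Of 10 genes of the exon junction complex and this decay, 1 fell in T12, and 1 rose and 1 fell in T34. Set against the shares of all genes above, these calls were fewer in each direction. UPF1, the helicase of the decay, fell by 0.30 in T12. MAGO rose by 0.28 and UPF2 fell by 0.25 in T34. The UPF1 call was lost without T12 replicate 2, at -0.26 (adjusted p = 0.0751 by limma). The MAGO call was lost without WT replicate 1, T12 replicate 2 or any T34 library, at 0.24 to 0.30 (adjusted p = 0.0580 to 0.120), and the UPF2 call without any 1 library other than T12 replicate 1, at -0.27 to -0.23 (adjusted p = 0.0569 to 0.132).

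The libraries held 20963358 to 30438933 reads, of which nuclear genes without ribosomal RNA took 10054383 to 15270346 in the mutants and 12337416, 645133 and 6282821 in WT. Ribosomal RNA took 0.951 to 1.77% of reads in T12, 45.0 to 49.4% in T34, and 22.5, 95.7 and 49.1% in WT. A single read stood for 11.7 normalized counts in WT replicate 2, where the 8 genes rested on 28 (RS31) to 624 (GRP7) reads. Summed levels of 6 green tissue markers were 55816 to 84086 normalized counts in WT, 66482 to 75020.0 in T12 and 30867 to 38236 in T34. Those of 8 root markers were 738 to 1244, 858 to 1255 and 965 to 1104. Those of 4 seed markers were 56.1 to 5259, 2167 to 5555 and 11741 to 29016. None of these markers was at 0 in all libraries, and 1 root marker was at 0 in some. The root sums join changes in both directions, with 2 markers called higher and 3 lower in T12, and 1 higher and 3 lower in T34. Of the green markers, 3 were higher and none lower in T12, and none higher and 3 lower in T34. Seed markers were higher in 1 case in T12 and in 4 in T34. Over all genes tested 23.1% were higher and 17.0% lower in T12, and 25.2% and 20.0% in T34. The part of these marker levels and of the ribosomal RNA share in the changes of the 8 genes was not tested. The labels list 1 library under both WT and T34 and another under no group, and the tables place them in WT and T34. Without both, 5 of 8 genes still passed the test in T12 and 4 in T34. Of all 20871 genes, 4445 were then called higher and 3079 lower in T12, and 4358 and 3178 in T34.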

How the data were processed

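RNA was measured in whole seedlings as stranded, ribosomal-RNA-depleted libraries. Per the submitters' processing notes, reads were handled with HISAT2 2.1.0, cutadapt 1.8.1, DESeq2 1.22.2 and featureCounts 1.6.2, on the build TAIR10. The sources used here do not give the annotation version, the strand setting or the treatment of multiply matching reads. The authors deposited 2 tables of 30271 genes. Per the file headers they hold normalized counts per library, log2 fold changes with standard errors, a score (the test statistic), and p-values with and without adjustment. This deposited signal, the normalized count, is a count divided by the library's size factor, and at a tolerance of 0.01 reads 100% of values came out as whole reads. The WT values were identical in both tables.

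The tables held no raw counts, so limma-trend (limma 3.58.1, R 4.3.3) was fitted on log2(normalized count + 1) over all 9 libraries, for 20871 genes with at least 10 normalized counts in at least 3 libraries. Such fold changes understate those of low genes. The fit was checked on simulated data. P-values measure only the spread between these libraries, which may be technical. Alternatives included edgeR 4.0.16 and DESeq2 1.42.0 on recovered reads. Promoters, exon lengths and coding sequences came from RefSeq TAIR10.1 by locus, where 29991 loci matched. The 8 genes, the gene lists and the tests were chosen with earlier results of these data known. Named were the 8 genes, called genes of the SR and glycine-rich lists, up to 4 called genes with the largest change of each other splicing list, and the 5 genes most like GRP7 and GRP8. The clock genes and the genes with 3 evening elements were named after their values were seen.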

Additional observations from a re-analysis of the deposited data

How the results depend on the processing

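Each result was recomputed under 19 alternatives. The calls of GRP7, GRP8, SR30 and RS40 in both comparisons with WT, and of SR34 in T12, held in all 19. GRP7 ranged from -4.30 to -4.07 in T12 and from -4.04 to -3.77 in T34, GRP8 from -1.49 to -1.10 and from -1.03 to -0.64, SR30 from 1.01 to 1.2 and from 1.39 to 1.62, and RS40 from -1.55 to -1.25 and from -1.24 to -1.03. The number of the 8 genes called ranged from 5 to 6 in T12 and from 4 to 5 in T34. Calls over all genes tested ranged from 6350 to 10387 in T12 and from 7341 to 11327 in T34.

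Between T34 and T12, 497 genes were called, and 4486 with limma-voom, 1369 with edgeR, 1625 with DESeq2, 2144 with only the 2 groups in the fit and 162 without the 2 libraries of unclear label. Leaving out 1 library gave 14 to 1898. Of the 8 genes, none was called in the first case, and 4, 1, 2 and 3 with limma-voom, edgeR, DESeq2 and only the 2 groups, with 0 to 3 on leaving out 1 library. Without WT replicate 2 or with only the 2 groups, the log2 differences of the 8 genes were unchanged and their SE was smaller. That of SR45 was 0.159 in the first case, 0.120 without WT replicate 2 and 0.115 with only the 2 groups. The cause of the shifts in the numbers of calls was not tested. SR30 over SR34 in T34 against T12 (-0.05) ranged from -0.18 to 0.043 on leaving out 1 library.

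Sign changes among the 8 genes concerned values that passed no test. SR34 in T34 was 0.022 with limma-voom and ranged from -0.22 to 0.029 on leaving out 1 library, highest without WT replicate 2. RS31 in T12 was -0.0076 with upper quartile factors, -0.042 scaled to nuclear reads and -0.0019 to 0.16 on leaving out 1 library, lowest without WT replicate 2. RS41 was 0.0078 and 0.089 with limma-voom in T12 and T34, and ranged from -0.37 to 0.042 and from -0.25 to 0.17 on leaving out 1 library, highest without WT replicate 2. Of the other named genes, RS2Z32 in T34 was -0.012 with upper quartile factors and -0.024 scaled to nuclear reads, SC35 in T12 ranged from -0.10 to 0.055 on leaving out 1 library, and MAGO in T12 was -0.017 scaled to nuclear reads. SR45 in T12 was called with upper quartile factors (-0.54), scaled to nuclear reads (-0.57), without WT replicate 3 (-0.56) and without T12 replicate 3 (-0.52), and in T34 with limma-voom (0.39) and without WT replicate 2 (0.37).

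Higher and lower calls over all genes, 4827 and 3555 in T12 and 5262 and 4166 in T34, became 4183 and 4729, and 4548 and 5265, with upper quartile factors. Scaled to nuclear reads they were 3990 and 5082, and 4436 and 5347. The T12 calls of SCL33, GR-RBP3, RBP47B and AT4G35500 and the T34 calls of GR-RBP5 and MAGO were lost under both. The latter scaling moved the median of all genes in T12 from 0.06 to -0.09. The depth of WT replicate 2 limits the WT means of the less expressed genes. No paired analysis was possible because the labels give no replicate numbers. The replicate numbers used here only follow the order of the library names within each group.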
